A study of Mus musculus with 9 samples.

Results

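The genes whose names begin with Eif1 to Eif6, which encode the translation initiation factors and their close relatives, were followed in RNA-seq libraries of mouse spleen cells. They were chosen by name from the gene table, without the Eif2ak kinases and names ending in -ps, and the rule took 80 of 56860 rows. The 9 libraries form 3 groups of 3, all labelled as spleen CD4+ T cells. The groups are CIA mice treated with luteolin, a plant flavone (CIA with luteolin), CIA mice without it (CIA), and mice labelled control. The labels do not spell out CIA, the series title names RA, and strain, age, luteolin dose and the number of animals behind a library are not given in the sources used here. P-values therefore measure the spread between these samples, which may be technical.

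Initiation factors bring the small ribosomal subunit, the initiator tRNA and an mRNA together at the start codon. eIF4E binds the mRNA cap and joins the scaffold eIF4G and the helicase eIF4A, while 4E-binding proteins hold eIF4E back until the kinase mTORC1 phosphorylates them. eIF2 carries the initiator tRNA, eIF2B recharges eIF2 with GTP, and kinases that phosphorylate eIF2 in stress slow that step. eIF3 links the small subunit to eIF4G, and resting T cells are known to raise their translation when they are activated.

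The libraries held 31234177 to 41815573 counts, and 19348 genes passed the filter on low counts. Levels are given as CPM (library-scaled counts, with TMM factors) and as RPKM (the same per kilobase of exon) where genes are compared. Replicates of CIA were the most uneven, where the chi-square between 2 libraries was 32.2 to 114 times its degrees of freedom, against 5.51 to 16.1 times within the other groups. Cd4, the gene of the surface protein in the cell label, was at 98.5 to 106 CPM in CIA with luteolin and 82.1 to 151 CPM in CIA, but at 2.46 to 3.65 CPM in the libraries labelled control. The control libraries thus go against their label in Cd4, and each difference from control rests on them, whereas a difference between CIA with luteolin and CIA sets no level against them. The summed level of 12 markers of neutrophils and their precursors was 8608 to 9033 CPM in CIA with luteolin, 6718 to 11300 in CIA and 2099 to 2462 in control. That of 10 T cell markers was 512 to 550 CPM, 418 to 672 CPM and 273 to 318 CPM in those groups. Of the 12 neutrophil markers, 6 rose and 5 fell in CIA with luteolin against CIA, with log2 fold changes from -2.48 to 7.39. Of all tested genes 23.1% rose and 24.2% fell there. S100a9 made up much of the sum, at a mean of 3971 CPM in CIA with luteolin and 6744 in CIA. Mpo averaged 261 and 1.54 CPM in these 2 groups, and Retnlg 9.14 and 50.9 CPM. For 10 B cell markers the sums were 512 to 631, 343 to 1949 and 2463 to 2563 CPM, for 11 macrophage markers 628 to 728, 168 to 218 and 255 to 327 CPM, and for 15 markers of dividing cells 2421 to 2494, 504 to 633 and 1440 to 1462 CPM, with the groups named in the order above. The 8 plasma cell markers summed to 572 to 624, 510 to 561 and 389 to 424 CPM, with Tnfrsf17 at 0 in control, and the 10 erythroid markers to 1.49 to 1.79, 5.98 to 6.42 and 3.93 to 5.87 CPM, with Car1 at 0 in CIA and in control. Every sum in control was apart from those of both other groups. The T cell, B cell and neutrophil sums of CIA spanned those of CIA with luteolin, and the other sums did not overlap between these groups. Within CIA each B cell marker was highest in replicate 1 and lowest in replicate 3, with Pax5 at 410, 230 and 67.9 CPM. The part of these levels in the results on initiation factors was not tested. In bulk samples fewer cells of a type and less RNA per cell cannot be told apart.

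Of the 80 members, 50 passed the filter and were tested. The other 30 had at most 28 counts over the 9 libraries, and 10 of them had none. They were 17 relatives of Eif1ad, 8 numbered pseudogenes, the germ cell cap-binding gene Eif4e1b, the Eif4a3 copies Eif4a3l1 and Eif4a3l2, the Y-linked Eif2s3y, and Eif2c5, which carries an older Argonaute name. The members took 1.26% to 1.43% of all counts in a library, and Eif3a by itself took 38.4% to 40.7% of the members' counts.

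In CIA against control, 4 members rose and 19 fell, while 27 missed the threshold. Of all tested genes 51.1% passed, 26.6% as rises and 24.5% as falls. In 4 members all CIA libraries lay above all control libraries and in 22 they lay below, where 58.7% of all tested genes were apart in this way, 29.7% above and 29.1% below. The 4 that rose were Eif4ebp1, Eif5, Eif1 and Eif4enif1. The members' median log2 fold change was -0.18, against -0.01 over all tested genes, and Eif4ebp1 was the single member that passed with a change of 2-fold or more, as 21.4% of all tested genes did. Without CIA replicate 2, or without control replicate 1, 11 members fell instead of 19. Luteolin-treated CIA against CIA gave 16 rises, 7 falls and 27 members that missed the threshold, where 47.3% of tested genes passed, 23.1% as rises and 24.2% as falls. The groups did not overlap in 21 members that were higher with luteolin and 9 that were lower, against 55.7% of tested genes, 28% higher and 27.7% lower. The median was 0.13, against -0.04 over all tested genes, and Eif4e3 was the single member past 2-fold, against 18.9% of tested genes. Without CIA with luteolin replicate 2, 4 members fell instead of 7. Against control, CIA with luteolin gave 7 rises, 6 falls and 37 members that missed the threshold, where 45% of tested genes passed, 24.2% as rises and 20.8% as falls. The median was -0.06 for the members and -0.01 for all tested genes, and 1 member, Eif4e3, passed with 2-fold or more, against 19% of tested genes. The groups did not overlap in 11 members that were higher and 14 that were lower, against 63.3% of tested genes, 32.3% higher and 30.9% lower. The 7 rises became 3 without CIA with luteolin replicate 1 or 3 or control replicate 1, and 4 without control replicate 2 or 3. The 6 falls became 2 without CIA with luteolin replicate 2 or control replicate 2, 3 without CIA with luteolin replicate 3 or control replicate 1, and 12 without CIA replicate 3. The first 2 of these comparisons share the CIA libraries, so a low or high CIA level enters both with opposite sign.

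**Figure D1:**
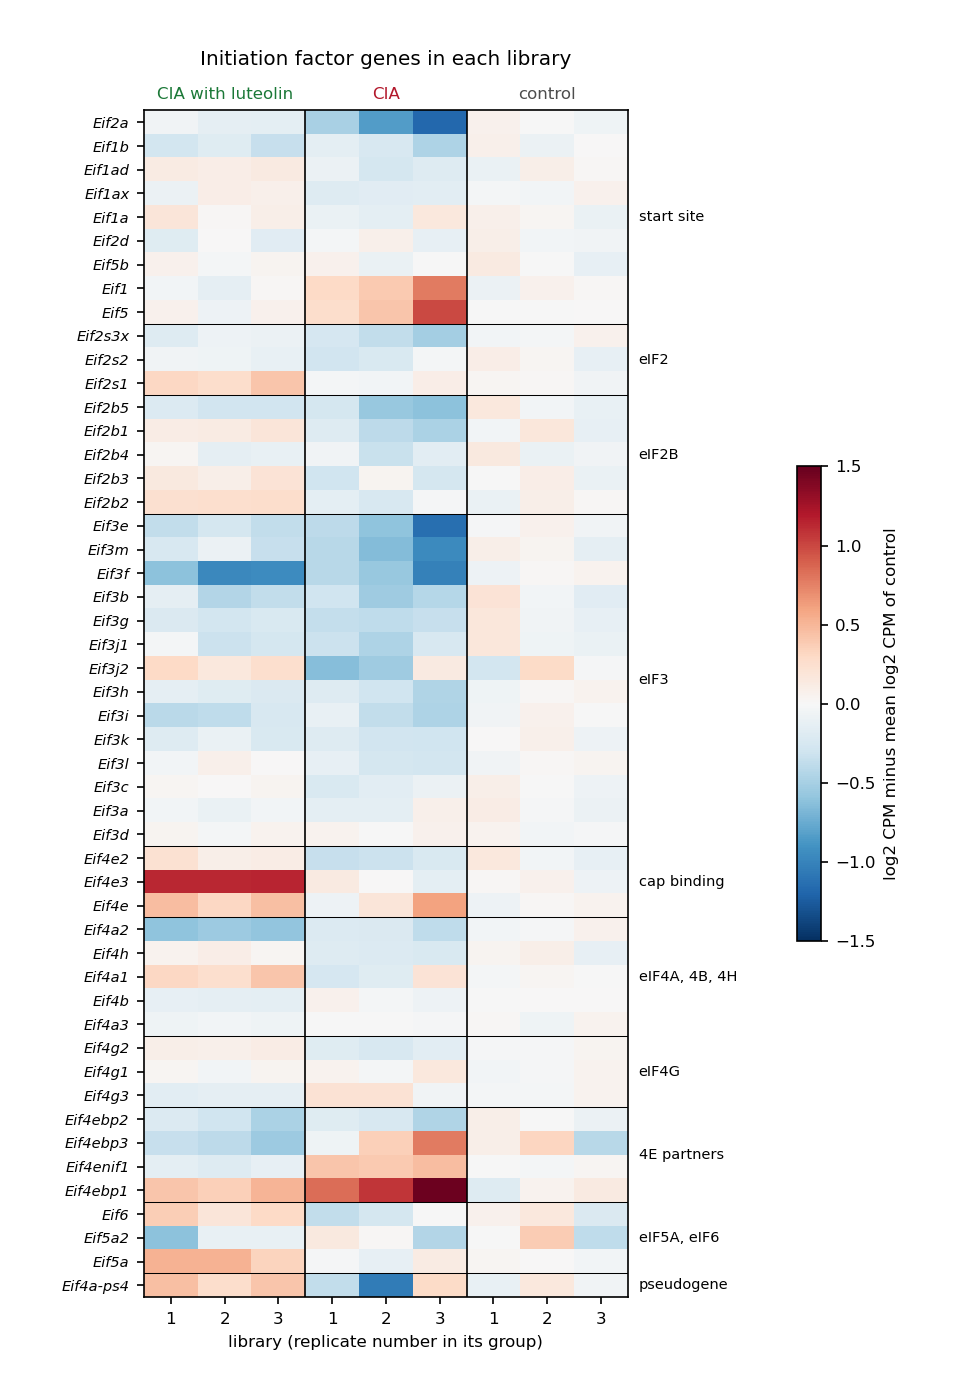
Level of each of the 50 tested members (rows, grouped by role) in each of the 9 libraries (columns: CIA with luteolin, CIA, control), as log2 of CPM relative to the mean of the control libraries (colour). Most eIF3 rows are below the control mean in the columns of CIA and of CIA with luteolin. The Eif4ebp1 row is above it in both groups and highest in CIA, and the Eif4e3 row is above it in CIA with luteolin.

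**Figure D2:**
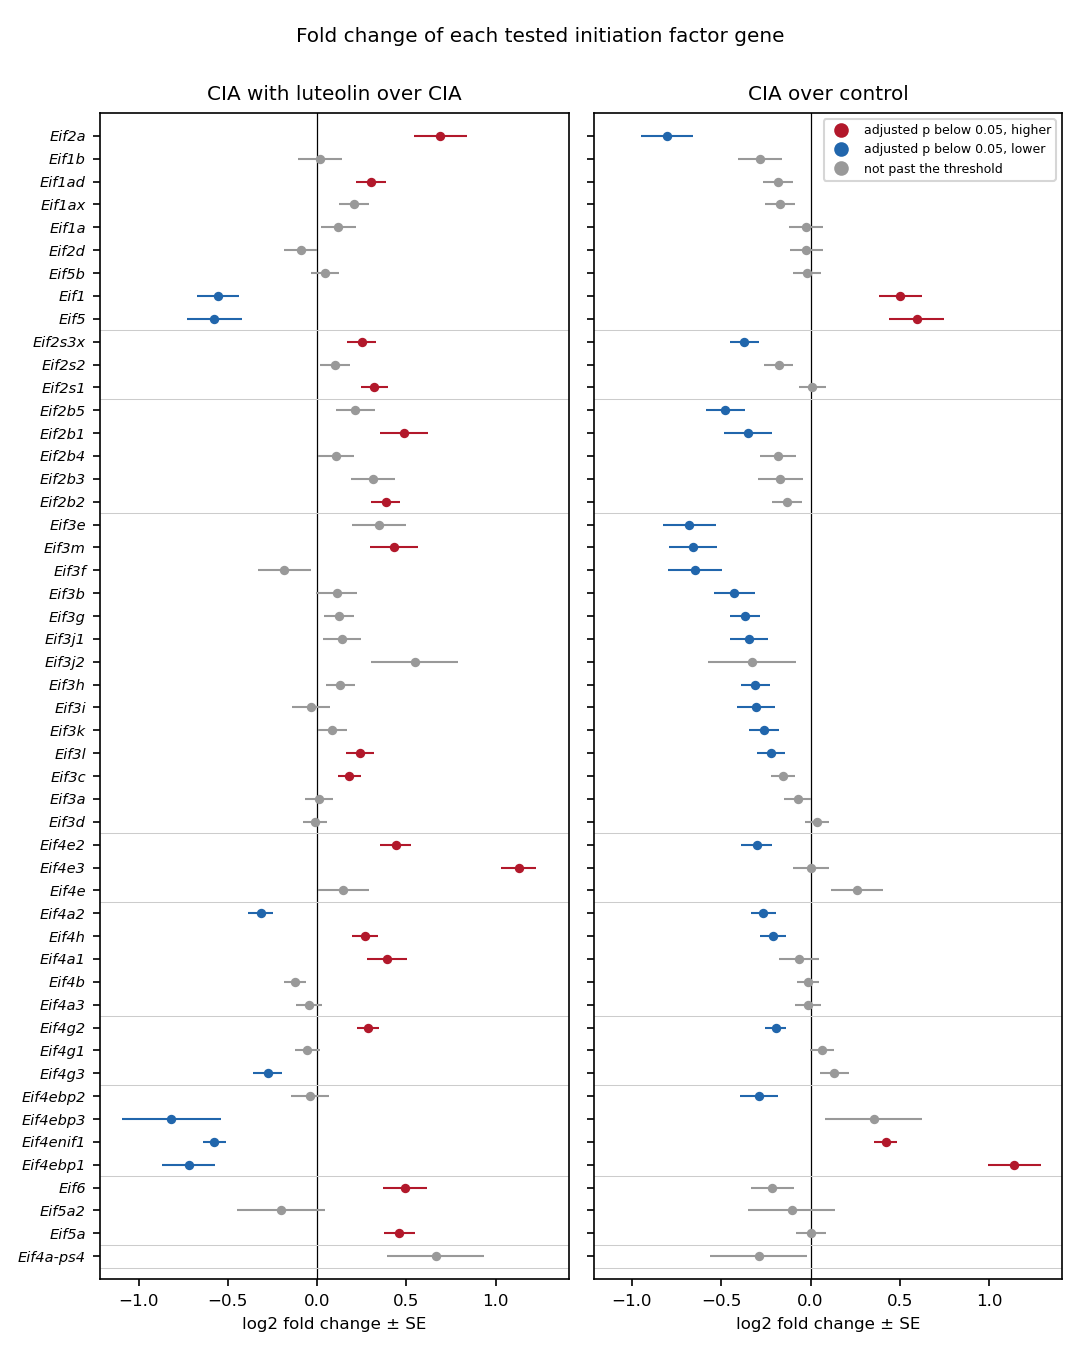
Log2 fold change with its SE (horizontal axis) for the 50 tested members, for CIA with luteolin against CIA and for CIA against control. Red (higher) and blue (lower) points passed an adjusted p of 0.05, and grey points did not. In CIA against control 4 red points lie right of 0 and 19 blue points left. In CIA with luteolin against CIA 16 red points lie right and 7 blue points left. Both comparisons use the same CIA libraries.

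Promoter sequence is shown for 4 members named in the results below: Eif3f, which was lower than control in both CIA groups, the helicase pair Eif4a1 and Eif4a2, which moved apart with luteolin, and the cap-binding gene Eif4e. The 4 were picked and do not stand for the members as a whole. The sequences come from RefSeq on build GRCm38.p6, from 250 bases before the annotated start to 20 after it, and 41 of the 80 members matched a window. Capitals mark the E-box CACGTG, which reads the same on both strands and is bound by MYC among other factors, and in Eif3f also the run of C and T that holds the start base. Such a run at the start of an mRNA is known as the terminal oligopyrimidine motif, through which mTORC1 controls the translation of ribosomal proteins and several translation factors.
Eif3f (chr7:108934165-108934434, plus strand): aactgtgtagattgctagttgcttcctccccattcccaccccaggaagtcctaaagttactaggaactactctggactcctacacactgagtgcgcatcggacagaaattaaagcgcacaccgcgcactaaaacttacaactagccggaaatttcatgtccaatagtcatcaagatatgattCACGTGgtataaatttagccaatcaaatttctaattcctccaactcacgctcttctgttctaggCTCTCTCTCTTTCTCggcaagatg
Eif4a1 (chr11:69672404-69672673, minus strand): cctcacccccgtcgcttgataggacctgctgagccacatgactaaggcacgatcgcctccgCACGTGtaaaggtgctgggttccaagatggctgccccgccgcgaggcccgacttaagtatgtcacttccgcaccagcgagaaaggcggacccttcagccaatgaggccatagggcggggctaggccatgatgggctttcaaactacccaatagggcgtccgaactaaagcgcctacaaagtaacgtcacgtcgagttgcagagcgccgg
Eif4a2 (chr16:23107218-23107487, plus strand): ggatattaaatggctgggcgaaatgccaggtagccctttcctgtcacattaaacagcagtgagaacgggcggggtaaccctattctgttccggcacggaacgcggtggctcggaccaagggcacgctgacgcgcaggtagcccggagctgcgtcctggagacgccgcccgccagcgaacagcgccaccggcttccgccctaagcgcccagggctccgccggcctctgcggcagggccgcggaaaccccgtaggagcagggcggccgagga
Eif4e (chr3:138527018-138527287, plus strand, the second of its annotated starts): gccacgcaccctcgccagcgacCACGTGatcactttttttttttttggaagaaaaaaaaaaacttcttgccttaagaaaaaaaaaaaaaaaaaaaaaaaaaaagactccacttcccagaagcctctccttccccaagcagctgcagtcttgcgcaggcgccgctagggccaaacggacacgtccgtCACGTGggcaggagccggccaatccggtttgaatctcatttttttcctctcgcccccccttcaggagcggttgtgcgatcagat
The Eif3f window holds 1 E-box, whose first base is at position -68 from the start, and a run of 15 C or T at the start. Eif4a1 has 1 E-box at -189, the printed Eif4e window has E-boxes at -228 and -64, and the window of Eif4a2 holds no CACGTG. The window of the first Eif4e start, which is not printed, holds none either. Over windows of 300 bases, 12 of the 50 windows of tested members (24.0%) held CACGTG, against 2349 of 32851 windows of all genes (7.15%). A run of at least 8 C or T holding the start base was found in 4 of the 50 (8.0%) and in 1268 of all windows (3.86%). The windows of all genes cover 27025 genes, whether or not they passed the filter on low counts, whereas the tested members all passed it. The sets compared are therefore unlike. Some genes have several windows that overlap, so windows are not independent, and a match is a description of the letters and not of binding.

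The largest rise of a member in CIA was that of Eif4ebp1. This gene (build mm39, chromosome 8, 27750357 to 27766702, plus strand) encodes 4E-BP1, the mTORC1-controlled repressor of eIF4E. It had 84.2, 80.9 and 89.8 CPM in CIA with luteolin, 113, 132 and 175 CPM in CIA and 55.3, 65.7 and 69.5 CPM in control. All CIA libraries lay above those of both other groups, and the luteolin libraries lay between CIA and control without overlap. Eif4ebp1 fell in CIA with luteolin against CIA (log2 fold change -0.72 ± 0.15, adjusted p = 0.00245); in CIA against control it rose (1.14 ± 0.15, adjusted p = 0.000175), and in CIA with luteolin against control it rose (0.42 ± 0.15, adjusted p = 0.038). The last call was lost without CIA with luteolin replicate 1 (0.43) or 3 (0.38), CIA replicate 2 (0.42) or control replicate 1 (0.33) or 2 (0.45).

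Eif4enif1 encodes 4E-T, which binds eIF4E and carries it into the nucleus and into P-bodies. It had 113, 109.8 and 115 CPM in CIA with luteolin, 167, 164 and 172 CPM in CIA and 125, 123 and 128 CPM in control. The CIA libraries were close together and above every other library. Eif4enif1 fell in CIA with luteolin against CIA (-0.58 ± 0.07, adjusted p = 5.74e-05) and rose in CIA against control (0.42 ± 0.07, adjusted p = 0.000461), and it did not pass in CIA with luteolin against control (-0.15 ± 0.07, adjusted p = 0.0777), where it was called without CIA replicate 3 (-0.15). The fall and the rise held under all 17 alternatives of processing or left-out library.

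The other 4E-binding protein genes were at lower levels per length. Eif4ebp2 had 31.9, 29.8 and 26.4 CPM in CIA with luteolin, 32.6, 31.2 and 26.9 CPM in CIA and 39.3, 36.7 and 34.8 CPM in control. The luteolin and CIA libraries overlapped and all lay below control. Eif4ebp2 fell in CIA against control (-0.29 ± 0.11, adjusted p = 0.0412), a call lost without CIA with luteolin replicate 2 (-0.28), CIA replicate 2 (-0.31) or 3 (-0.21) or control replicate 1 (-0.25) or 2 (-0.30). Eif4ebp2 fell in CIA with luteolin against control (-0.33 ± 0.11, adjusted p = 0.0266), a call lost without CIA with luteolin replicate 2 (-0.28) or 3 (-0.25) or control replicate 1 (-0.28) or 2 (-0.33). Eif4ebp3, with 32 to 72 counts in a library, was at 1.09, 1.06 and 0.950 CPM in CIA with luteolin, 1.33, 1.78 and 2.38 CPM in CIA and 1.48, 1.74 and 1.04 CPM in control. Eif4ebp3 fell in CIA with luteolin against CIA (-0.82 ± 0.28, adjusted p = 0.032), and leaving out any of the luteolin libraries (-0.85, -0.78 and -0.75 without replicates 1, 2 and 3) or CIA replicate 2 (-0.83) or 3 (-0.59) ended that call. Of its exonic bases 67.3% are shared with Maskbp3 on the same strand, so its reads cannot be told from those of Maskbp3.

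**Figure D3:**
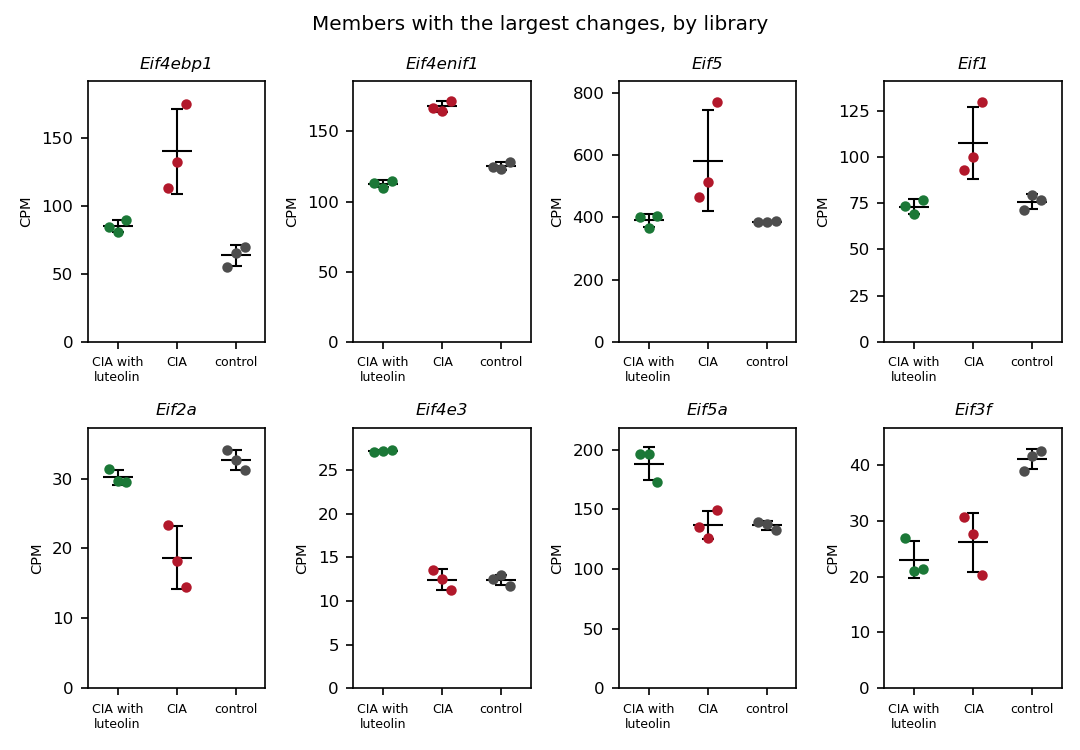
CPM in each library (points) with the mean and SD of 3 libraries (lines) for 8 members, in CIA with luteolin, CIA and control. Eif4ebp1, Eif4enif1, Eif5 and Eif1 are highest in CIA, Eif2a is lowest there, Eif4e3 and Eif5a are highest in CIA with luteolin, and Eif3f is highest in control.

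Of the 3 tested cap-binding genes, Eif4e3 gave the largest rise with luteolin of any member. Eif4e3 (chromosome 6, 99602096 to 99643732, minus strand) encodes a cap-binding relative of eIF4E. It had 27.1, 27.2 and 27.3 CPM in CIA with luteolin, 13.6, 12.5 and 11.2 CPM in CIA and 12.6, 12.9 and 11.7 CPM in control. The luteolin libraries were alike and all above the others, while CIA and control overlapped. Eif4e3 rose in CIA with luteolin against CIA (1.13 ± 0.10, adjusted p = 9.82e-06) and against control (1.13 ± 0.10, adjusted p = 1.32e-05), under all 17 alternatives, and did not pass in CIA against control (0.00 ± 0.10, adjusted p = 0.983). Of its 2515 exonic bases 373 are shared with Gm20696 on the same strand, a gene with 85.8% of its count that also rose in CIA with luteolin against CIA (0.90, adjusted p = 0.000279).

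Eif4e, the major cap-binding factor, had 65.3, 58.9 and 64.7 CPM in CIA with luteolin, 45.0, 53.7 and 72.0 CPM in CIA and 45.1, 47.9 and 49.4 CPM in control. The CIA libraries spread widely, with replicate 1 at the level of control and replicate 3 above every luteolin library, and the luteolin libraries all lay above control. Eif4e did not pass in CIA with luteolin against CIA (0.15 ± 0.14, adjusted p = 0.428), where the value was 0.35 and called without CIA replicate 3 and 0.010 without CIA replicate 1. It did not pass in CIA against control either (0.26 ± 0.14, adjusted p = 0.154), where the value was 0.40 and called without CIA replicate 1 and 0.061 without CIA replicate 3. Eif4e rose in CIA with luteolin against control (0.41 ± 0.14, adjusted p = 0.0399), a call kept in 10 of 17 alternatives and lost without CIA with luteolin replicate 1 (0.38) or 3 (0.39), CIA replicate 2 (0.41), or control replicate 1 (0.37), 2 (0.41) or 3 (0.44). Eif4e2, which encodes 4EHP, a cap-binding repressor, averaged 134 ± 6.78 CPM in CIA with luteolin, 98.6 ± 4.22 in CIA and 121 ± 12.6 in control (SD, n = 3). Eif4e2 rose in CIA with luteolin against CIA (0.44 ± 0.09, adjusted p = 0.00225) and fell in CIA against control (-0.30 ± 0.09, adjusted p = 0.0156, not called without control replicate 1, at -0.22).

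Set per length, Eif4e was far below the summed level of Eif4ebp1 and Eif4ebp2, but above Eif4ebp2 by itself in every library. Eif4e averaged 10.5 RPKM in CIA with luteolin, 9.47 in CIA and 7.90 in control, and Eif4ebp2 5.08, 5.23 and 6.38 RPKM. The ratio of Eif4e RPKM to the sum of Eif4ebp1 and Eif4ebp2 RPKM was 0.248, 0.234 and 0.237 in CIA with luteolin, 0.132, 0.136 and 0.142 in CIA and 0.235, 0.220 and 0.218 in control. The CIA libraries had the lowest ratios and the luteolin and control libraries overlapped. The mean ratio was 0.103 higher in CIA with luteolin than in CIA (exact permutation test, 2-sided, p = 0.1), lower in CIA than in control by a difference of -0.0879 (exact p = 0.1) and 0.0149 higher in CIA with luteolin than in control (exact p = 0.2). With 3 libraries against 3 an exact test cannot give less than 0.1. Eif4ebp1 made up 87.4%, 87.7% and 89.9% of the summed Eif4ebp1 and Eif4ebp2 RPKM in CIA with luteolin, 90.1%, 91.8% and 94.5% in CIA and 78.7%, 82.5% and 84.0% in control. The groups did not overlap in this share in any of the 3 comparisons (exact p = 0.1 in each).

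**Figure D4:**
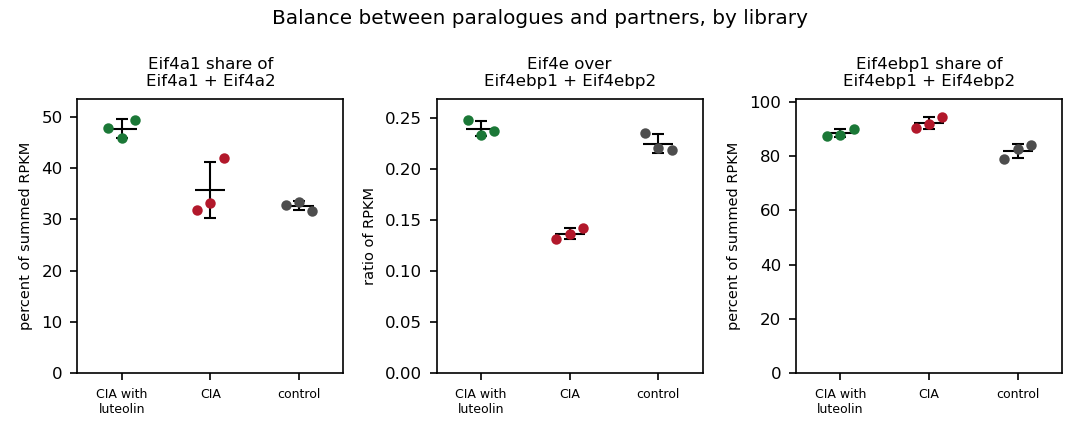
Share of Eif4a1 in the summed RPKM of Eif4a1 and Eif4a2 (percent), ratio of Eif4e RPKM to the summed RPKM of Eif4ebp1 and Eif4ebp2, and share of Eif4ebp1 in that sum (percent), for each library (points) with the mean and SD (lines). The Eif4a1 share is 45.9% to 49.5% in CIA with luteolin, above all CIA and control libraries, and the Eif4e ratio is 0.132 to 0.142 in CIA, below all others.

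The helicases eIF4A1 and eIF4A2, close paralogues that unwind mRNA leaders, moved apart with luteolin. Eif4a1 (chromosome 11, 69557762 to 69563249, minus strand) had 226, 217 and 244 CPM in CIA with luteolin, 153, 161 and 209.5 CPM in CIA and 179, 186 and 182 CPM in control. The luteolin libraries were above all others, and CIA replicate 3 stood above the control libraries while the other CIA libraries stood below them. Eif4a1 rose in CIA with luteolin against CIA (0.39 ± 0.11, adjusted p = 0.0143), with values of 0.36 without CIA with luteolin replicate 3 and 0.34 without CIA replicate 2, neither called. Eif4a1 rose in CIA with luteolin against control (0.33 ± 0.11, adjusted p = 0.0331), a call lost without CIA with luteolin replicate 1 (0.34) or 3 (0.29) or control replicate 1 (0.32), 2 (0.34) or 3 (0.33). Eif4a1 did not pass in CIA against control (-0.06 ± 0.11, adjusted p = 0.656), where leaving out CIA replicate 3 gave a called -0.21.

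Eif4a2 (chromosome 16, 22926194 to 22932886, plus strand) had 304, 316 and 306 CPM in CIA with luteolin, 401, 397 and 355 CPM in CIA and 449, 454 and 482 CPM in control. The 3 groups did not overlap, with control highest and luteolin lowest. Eif4a2 fell in CIA with luteolin against CIA (-0.32 ± 0.07, adjusted p = 0.00397), in CIA against control (-0.26 ± 0.07, adjusted p = 0.00984) and in CIA with luteolin against control (-0.58 ± 0.07, adjusted p = 0.000109), and each call held under all 17 alternatives. Its exons share 13.3% of their bases with other genes, mostly small nucleolar RNA genes within it. The share of Eif4a1 in the RPKM of the pair was 47.7%, 45.9% and 49.5% in CIA with luteolin, 31.9%, 33.2% and 42.1% in CIA and 32.9%, 33.5% and 31.7% in control. The luteolin libraries had the highest shares and CIA overlapped control. The mean share was 12 percentage points higher in CIA with luteolin than in CIA and 15 points higher than in control (exact p = 0.1 in both), and CIA differed from control by 3.04 points (exact p = 0.6), or -0.12 without CIA replicate 3.

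Among the other helicase factors Eif4h, a cofactor of eIF4A, averaged 195 ± 5.05 CPM in CIA with luteolin, 162 ± 1.84 in CIA and 188 ± 13.9 in control. Eif4h rose in CIA with luteolin against CIA (0.27 ± 0.07, adjusted p = 0.0115) and fell in CIA against control (-0.21 ± 0.07, adjusted p = 0.0324), the fall being kept in 9 of 17 alternatives and lost without luteolin replicate 1, 2 or 3, CIA replicate 2 or control replicate 1 or 2 (between -0.27 and -0.17 over the left-out libraries). The cofactor gene Eif4b, at 545 to 631 CPM, and Eif4a3, the helicase of the exon junction complex, at 36.1 to 39.3 CPM, did not pass in any comparison. Eif4b was called with luteolin against CIA without CIA replicate 3 (-0.16) and with luteolin against control without CIA replicate 1 or 3 (-0.14 in both).

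Of the 3 scaffold genes, 1 rose and 1 fell in CIA with luteolin against CIA, where 23.1% of all tested genes rose and 24.2% fell. Eif4g1, the main scaffold, had 604, 577 and 609 CPM in CIA with luteolin, 617, 582 and 659.6 CPM in CIA and 578, 585 and 614 CPM in control. The groups overlapped, and it did not pass in CIA with luteolin against CIA (-0.05 ± 0.07, adjusted p = 0.539), CIA against control (0.06 ± 0.07, adjusted p = 0.452) or CIA with luteolin against control (0.01 ± 0.07, adjusted p = 0.923). Eif4g2 encodes DAP5, a scaffold that lacks the eIF4E binding site. It had 486, 481 and 493 CPM in CIA with luteolin, 402, 388 and 409 CPM in CIA and 451, 453 and 469 CPM in control. CIA was lowest, and the groups did not overlap. Eif4g2 rose in CIA with luteolin against CIA (0.28 ± 0.06, adjusted p = 0.00296) and fell in CIA against control (-0.20 ± 0.06, adjusted p = 0.0194), where -0.18 without CIA replicate 2 and -0.18 without control replicate 3 were not called. Eif4g3 averaged 347 ± 4.01 CPM in CIA with luteolin, 420 ± 43.5 in CIA and 383 ± 13.3 in control, and fell in CIA with luteolin against CIA (-0.28 ± 0.08, adjusted p = 0.0164), in 11 of 17 alternatives, the call being lost without any of the luteolin libraries or CIA replicate 2.

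Of the 14 subunit genes of eIF3, all tested, 10 fell in CIA against control and 4 missed the threshold, where 24.5% of all tested genes fell, with a median log2 fold change of -0.32, against -0.01 over all tested genes. The 10 became 6 without CIA replicate 2 and 6 without control replicate 1. With luteolin against CIA, 3 of the 14 rose (Eif3c, Eif3l and Eif3m) and 11 did not pass, where 23.1% of all tested genes rose, with a median of 0.13. The calls of Eif3c and Eif3l held in 8 and 11 of 17 alternatives. With luteolin against control, 4 fell (Eif3b, Eif3f, Eif3g and Eif3i) and 10 did not pass, where 20.8% of all tested genes fell, with a median of -0.19. The call of Eif3g held in 10 of 17 alternatives and was lost without any of the luteolin libraries or control replicate 1 (-0.15) or 2. The mean over the subunits of log2 CPM relative to control was -0.15, -0.21 and -0.21 in CIA with luteolin, -0.27, -0.38 and -0.39 in CIA and 0.03, 0.03 and -0.05 in control. The luteolin libraries lay between CIA and control on this mean. Single subunits ranged in log2 fold change from -0.18 to 0.55 in CIA with luteolin against CIA and from -0.68 to 0.04 in CIA against control.

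Eif3e, Eif3f and Eif3m gave the largest falls among the subunits. Eif3e (chromosome 15, 43113454 to 43146115, minus strand), which encodes a subunit with a PCI domain, had 127, 138 and 128 CPM in CIA with luteolin, 125, 108 and 75.2 CPM in CIA and 163, 172 and 159 CPM in control. CIA libraries were below the others and replicate 3 was the lowest. Eif3e fell in CIA against control (-0.68 ± 0.15, adjusted p = 0.00363) and did not pass in CIA with luteolin against CIA (0.35 ± 0.15, adjusted p = 0.0789), where the value was 0.52 and called without CIA replicate 1 and 0.16 without CIA replicate 3. Against control Eif3e did not pass with luteolin (-0.33 ± 0.15, adjusted p = 0.0929), but was called in 4 of 17 alternatives, among them without CIA replicate 1 or 3 (-0.33 in both). Eif3m (chromosome 2, 104830001 to 104847425, minus strand), another PCI subunit, had 39.8, 44.2 and 37.2 CPM in CIA with luteolin, 35.4, 30.1 and 24.4 CPM in CIA and 50.2, 48.7 and 42.9 CPM in control. CIA lay below both other groups, which overlapped. Eif3m fell in CIA against control (-0.66 ± 0.13, adjusted p = 0.00222) and rose in CIA with luteolin against CIA (0.43 ± 0.13, adjusted p = 0.021), a call lost without CIA with luteolin replicate 1 or 2 or CIA replicate 2.

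Eif3f (chromosome 7, 108533624 to 108542158, plus strand), whose promoter is printed above, encodes a subunit with an MPN domain. It had 26.9, 21.0 and 21.3 CPM in CIA with luteolin, 30.6, 27.6 and 20.3 CPM in CIA and 39.0, 41.6 and 42.5 CPM in control. Control was above all other libraries, and the luteolin and CIA libraries overlapped. Eif3f fell in CIA against control (-0.65 ± 0.15, adjusted p = 0.00469) and in CIA with luteolin against control (-0.83 ± 0.15, adjusted p = 0.00128), under all 17 alternatives, and did not pass in CIA with luteolin against CIA (-0.18 ± 0.15, adjusted p = 0.339). That last value was -0.34 and called without CIA replicate 3 and -0.049 without CIA replicate 1. Eif3i had 22.4, 22.9 and 25.1 CPM in CIA with luteolin, 27.5, 23.1 and 21.6 CPM in CIA and 28.7, 31.1 and 29.6 CPM in control. Eif3i fell in CIA against control (-0.31 ± 0.11, adjusted p = 0.0323), in 9 of 17 alternatives, and in CIA with luteolin against control (-0.34 ± 0.11, adjusted p = 0.022), in 12 of 17. The first call was lost without CIA with luteolin replicate 2, CIA replicate 2 or 3 or any control library, and the second without CIA with luteolin replicate 1 (-0.31) or 2 (-0.27) or control replicate 2 (-0.31) or 3 (-0.35).

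Eif3b, a core scaffold subunit, had 257, 208 and 218 CPM in CIA with luteolin, 228, 194 and 209.9 CPM in CIA and 326, 273 and 251 CPM in control. Control replicate 1 was the highest library, and luteolin overlapped both other groups. Eif3b fell in CIA against control (-0.43 ± 0.11, adjusted p = 0.0104) and in CIA with luteolin against control (-0.32 ± 0.11, adjusted p = 0.0445), the second in 10 of 17 alternatives, with -0.20 without CIA with luteolin replicate 2, -0.28 without replicate 3, -0.31 without CIA replicate 2, and -0.20 and -0.34 without control replicates 1 and 2. Eif3j1, a loosely bound subunit, had 124, 101 and 105 CPM in CIA with luteolin, 101, 91.7 and 106 CPM in CIA and 141, 120.5 and 118 CPM in control, and fell in CIA against control (-0.34 ± 0.11, adjusted p = 0.0198), with -0.29 without CIA replicate 2 and -0.26 without control replicate 1, neither called. Its exons share 20.2% of their bases with other genes, mainly Spg11 on the opposite strand, which did not pass in CIA against control (-0.12, adjusted p = 0.282). Gm56114, on the same strand with 68 shared bases and 28.0% of the Eif3j1 count, fell there (-0.57, adjusted p = 0.0114). In CIA against control Eif3g (-0.37), Eif3h (-0.31), Eif3k (-0.26) and Eif3l (-0.22) also fell; the call of Eif3k was lost without CIA replicate 2 or control replicate 1 or 2, and that of Eif3l held in 5 of 17 alternatives and, among left-out libraries, just without CIA replicate 1.

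The most abundant subunit gene did not pass in any comparison. Eif3a (chromosome 19, 60749555 to 60779096, minus strand), the largest core subunit, had 5297, 5062 and 5276 CPM in CIA with luteolin, 4929, 4899 and 5708 CPM in CIA and 5866, 5367 and 5099.6 CPM in control. The groups overlapped, and it did not pass in CIA with luteolin against CIA (0.01 ± 0.08, adjusted p = 0.933), CIA against control (-0.07 ± 0.08, adjusted p = 0.455) or CIA with luteolin against control (-0.06 ± 0.08, adjusted p = 0.535). Per length its level averaged 597 RPKM in CIA with luteolin, 593 in CIA and 624 in control. Eif3c, its partner in the core, averaged 336 RPKM in CIA with luteolin, 296 in CIA and 330.4 in control, whereas Eif3i averaged 6.35 RPKM in CIA with luteolin, 6.50 in CIA and 8.05 in control. Eif3d, which can bind the cap of some mRNAs, did not pass in any comparison, and 43.3% of its exonic bases are shared with Gm17638 on the opposite strand.

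The start site factors eIF1 and eIF5 act together, eIF1 in holding the scanning complex open and eIF5 as the activator of GTP hydrolysis by eIF2. Both genes rose in CIA. Eif5 (chromosome 12, 111504450 to 111513186, plus strand) had 402, 367 and 404 CPM in CIA with luteolin, 465, 515 and 769.9 CPM in CIA and 385, 386 and 387 CPM in control. CIA was above the other groups, replicate 3 by the most, and luteolin and control overlapped. Eif5 fell in CIA with luteolin against CIA (-0.58 ± 0.15, adjusted p = 0.0103), at -0.48 and not called without CIA with luteolin replicate 2 and at -0.33, still called, without CIA replicate 3. Eif5 rose in CIA against control (0.60 ± 0.15, adjusted p = 0.00824), at 0.35 and still called without CIA replicate 3, and did not pass in CIA with luteolin against control (0.02 ± 0.15, adjusted p = 0.933). Eif1 (chromosome 11, 100210711 to 100212922, plus strand) had 73.5, 69.1 and 76.8 CPM in CIA with luteolin, 92.8, 99.7 and 129.7 CPM in CIA and 71.5, 79.2 and 76.6 CPM in control. CIA lay above both other groups, which overlapped, and CIA replicate 3 was highest. Eif1 fell in CIA with luteolin against CIA (-0.55 ± 0.12, adjusted p = 0.00319) and rose in CIA against control (0.50 ± 0.12, adjusted p = 0.00514), under all 17 alternatives.

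Eif2a encodes eIF2A, a single protein that can bring initiator tRNA to some mRNAs and is distinct from the alpha subunit of eIF2. It gave the largest fall of any member in CIA. Eif2a (chromosome 3, 58433242 to 58464922, plus strand) had 31.4, 29.6 and 29.5 CPM in CIA with luteolin, 23.4, 18.2 and 14.4 CPM in CIA and 34.1, 32.6 and 31.2 CPM in control. CIA libraries were below all others, and replicate 3 was lowest. Eif2a rose in CIA with luteolin against CIA (0.69 ± 0.15, adjusted p = 0.00304), fell in CIA against control (-0.81 ± 0.15, adjusted p = 0.00121) and did not pass in CIA with luteolin against control (-0.11 ± 0.14, adjusted p = 0.548). Of its 6118 exonic bases 72 are shared with Serp1 on the opposite strand, which held 1741% of its count and did not pass in either of the first 2 comparisons. Eif1ad was listed with the start site genes, although such a role was not tested. It rose in CIA with luteolin against CIA (0.30 ± 0.08, adjusted p = 0.014, not called without CIA replicate 2). The remaining genes of that list, Eif1a, Eif1ax, Eif1b, Eif2d and Eif5b, the GTPase of subunit joining, did not pass in any comparison. Of these, Eif1a (0.21 without CIA replicate 3) and Eif1ax (0.27 without CIA with luteolin replicate 1) were called in CIA with luteolin against CIA and Eif1b (-0.36 without CIA replicate 1) in CIA against control, as was Eif1ad (-0.23 without CIA replicate 1). Eif1ad shares 15.3% of its exonic bases with Banf1 on the opposite strand, which held 34.9% of its count. Banf1 rose in CIA with luteolin against CIA (0.54, adjusted p = 0.00427) and fell in CIA against control (-0.53, adjusted p = 0.00464).

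Of the 3 tested subunits of eIF2, 2 rose in CIA with luteolin against CIA and 1 fell in CIA against control. Of all tested genes 23.1% rose in the first comparison and 24.5% fell in the second. Eif2s1, which encodes the alpha subunit that stress kinases phosphorylate, had 116, 113 and 125 CPM in CIA with luteolin, 92.2, 91.1 and 100.1 CPM in CIA and 95.7, 95.1 and 90.7 CPM in control. The luteolin libraries were above all others, and CIA and control overlapped. Eif2s1 rose in CIA with luteolin against CIA (0.32 ± 0.08, adjusted p = 0.00527) and against control (0.33 ± 0.07, adjusted p = 0.00472), under all 17 alternatives, and did not pass in CIA against control (0.01 ± 0.08, adjusted p = 0.922). Eif2s3x, the X-linked gamma subunit gene, had 143, 154 and 153 CPM in CIA with luteolin, 137, 126 and 114 CPM in CIA and 158, 159 and 171 CPM in control. CIA was lowest and the groups did not overlap. Eif2s3x fell in CIA against control (-0.37 ± 0.08, adjusted p = 0.00386) and rose in CIA with luteolin against CIA (0.25 ± 0.08, adjusted p = 0.0289), a call lost without CIA with luteolin replicate 2 (0.28) or 3 (0.25) or CIA replicate 2 (0.26) or 3 (0.18). The Y-linked copy Eif2s3y had 0 counts in 8 libraries and 2 counts in CIA replicate 1. If counts are independent, a count of 0 allows up to 3 counts, or 0.0712 to 0.0992 CPM over the libraries, as counting error alone. Most nonzero counts of the untested members were even. If mates of a read pair were counted separately, which was not tested, this limit is too low.

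eIF2B, the exchange factor of eIF2, has 5 subunit genes, of which 2 fell in CIA against control and 2 rose in CIA with luteolin against CIA. Of all tested genes 24.5% fell in the first comparison and 23.1% rose in the second. Eif2b5, the catalytic epsilon subunit, had 83.0, 78.5 and 78.8 CPM in CIA with luteolin, 80.2, 64.5 and 62.6 CPM in CIA and 107, 93.0 and 88.6 CPM in control. Control was above the other groups, which overlapped. Eif2b5 fell in CIA against control (-0.48 ± 0.11, adjusted p = 0.0044) and did not pass in CIA with luteolin against CIA (0.21 ± 0.11, adjusted p = 0.133) or against control (-0.27 ± 0.11, adjusted p = 0.0698). With luteolin against CIA it was called without CIA replicate 1 (0.34) and with a replicate block, and was 0.14 without CIA replicate 3. With luteolin against control it was called in 5 of 17 alternatives, among them without CIA replicate 1 or 3 (-0.26 in both). Eif2b1, the alpha subunit, had 6.41, 6.44 and 6.71 CPM in CIA with luteolin, 5.17, 4.50 and 4.27 CPM in CIA and 5.73, 6.66 and 5.41 CPM in control. CIA libraries were lowest. Eif2b1 rose in CIA with luteolin against CIA (0.49 ± 0.13, adjusted p = 0.0123) under all 17 alternatives, and fell in CIA against control (-0.35 ± 0.13, adjusted p = 0.0485) in 5 of 17, a fall called only without CIA replicate 1 or control replicate 3 among the left-out libraries. Eif2b2 rose in CIA with luteolin against CIA (0.38 ± 0.08, adjusted p = 0.00355) and against control (0.25 ± 0.08, adjusted p = 0.0306), the second call lost without CIA with luteolin replicate 1 or 3 or control replicate 1 or 3, and Eif2b3 and Eif2b4 did not pass, although Eif2b3 was called in CIA with luteolin against CIA without CIA replicate 2 (0.43).

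Of the 3 tested genes of eIF5A and eIF6, 2 rose in CIA with luteolin against CIA and 1 rose in CIA with luteolin against control, where 23.1% and 24.2% of all tested genes rose. Eif5a (chromosome 11, 69807540 to 69812784, minus strand) encodes the hypusine-bearing factor that eases peptide bond formation at difficult stretches. It had 196, 196 and 173 CPM in CIA with luteolin, 135, 126 and 149 CPM in CIA and 139.7, 138 and 132 CPM in control. The luteolin libraries were above all others, and CIA and control overlapped. Eif5a rose in CIA with luteolin against CIA (0.46 ± 0.09, adjusted p = 0.0014) and against control (0.46 ± 0.09, adjusted p = 0.00147), under all 17 alternatives, and did not pass in CIA against control (0.00 ± 0.09, adjusted p = 0.988). Eif6 (chromosome 2, 155661752 to 155668845, minus strand), which keeps the large ribosomal subunit from joining too early, had 51.2, 44.9 and 48.5 CPM in CIA with luteolin, 30.6, 33.0 and 39.2 CPM in CIA and 41.2, 44.0 and 34.0 CPM in control. The luteolin libraries were above all others. Eif6 rose in CIA with luteolin against CIA (0.49 ± 0.12, adjusted p = 0.00722) and did not pass in CIA against control (-0.21 ± 0.12, adjusted p = 0.167) or in CIA with luteolin against control (0.28 ± 0.12, adjusted p = 0.0854). Without CIA replicate 3 the last 2 values were called, at -0.32 and 0.28. Of its exonic bases 28.8% are shared with Gm16098 on the opposite strand, which held 70.4% of its count and rose by 0.57 in CIA with luteolin against CIA (adjusted p = 0.00677). Eif5a2 was at 1.99 to 4.0 CPM and did not pass (-0.20 ± 0.25, adjusted p = 0.527 in CIA with luteolin against CIA).

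Of the 6 genes of the kinases and phosphatase subunits that act on eIF2, 1 rose and 2 fell in CIA with luteolin against CIA, 3 rose and 2 fell in CIA against control, and 2 rose and 1 fell in CIA with luteolin against control. Of all tested genes 47.3%, 51.1% and 45% passed in these comparisons, so the 3 of 6 called in the first and the third are near the share over all genes. Eif2ak2, the interferon-induced kinase PKR, had 313, 324 and 306 CPM in CIA with luteolin, 97.5, 104 and 85.0 CPM in CIA and 240.4, 228 and 238 CPM in control. It was lowest in CIA and highest in CIA with luteolin, with no overlap (1.72 ± 0.08, adjusted p = 2e-07 in CIA with luteolin against CIA, and -1.30 ± 0.08, adjusted p = 3.27e-06 in CIA against control). Eif2ak3, the endoplasmic reticulum stress kinase PERK, had 96.7, 99.0 and 98.6 CPM in CIA with luteolin, 279.7, 218 and 186 CPM in CIA and 147, 142 and 175 CPM in control. It was highest in CIA and lowest in CIA with luteolin (-1.22 ± 0.14, adjusted p = 5.47e-05, and 0.56 ± 0.14, adjusted p = 0.00608 in CIA against control).

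Eif2ak4, the amino acid sensor GCN2, had 38.6, 38.1 and 41.9 CPM in CIA with luteolin, 43.6, 36.0 and 24.7 CPM in CIA and 48.2, 46.5 and 46.4 CPM in control, with CIA replicate 3 lowest. Eif2ak4 fell in CIA against control (-0.44 ± 0.16, adjusted p = 0.0443), a call kept in 7 of 17 alternatives, at -0.24 without CIA replicate 3 and lost without any single library other than CIA replicate 1. It did not pass in CIA with luteolin against CIA (0.19 ± 0.16, adjusted p = 0.376), where it was 0.39 and called without CIA replicate 1 and -0.013 without CIA replicate 3. Eif2ak1, the haem-regulated kinase, had 88.4, 83.5 and 87.5 CPM in CIA with luteolin, 81.3, 83.6 and 71.9 CPM in CIA and 72.7, 74.6 and 73.4 CPM in control and rose in CIA with luteolin against control (0.23 ± 0.08, adjusted p = 0.0319), a call lost without CIA with luteolin replicate 1 or 3 or any control library. Ppp1r15a, the inducible phosphatase subunit GADD34, had 239, 225 and 258 CPM in CIA with luteolin, 359, 363 and 698 CPM in CIA and 307, 334 and 283 CPM in control, with CIA replicate 3 far above the other CIA libraries. Ppp1r15a fell in CIA with luteolin against CIA (-0.98 ± 0.22, adjusted p = 0.0041) and rose in CIA against control (0.62 ± 0.22, adjusted p = 0.0342). Without CIA replicate 3 these values were -0.59 and 0.23, both still called, and the rise was not called without CIA with luteolin replicate 1 or any control library. Its constitutive counterpart Ppp1r15b had 147, 145 and 151 CPM in CIA with luteolin, 166, 163 and 171 CPM in CIA and 133, 128 and 148 CPM in control and rose in CIA against control (0.29 ± 0.07, adjusted p = 0.0084).

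**Figure D5:**
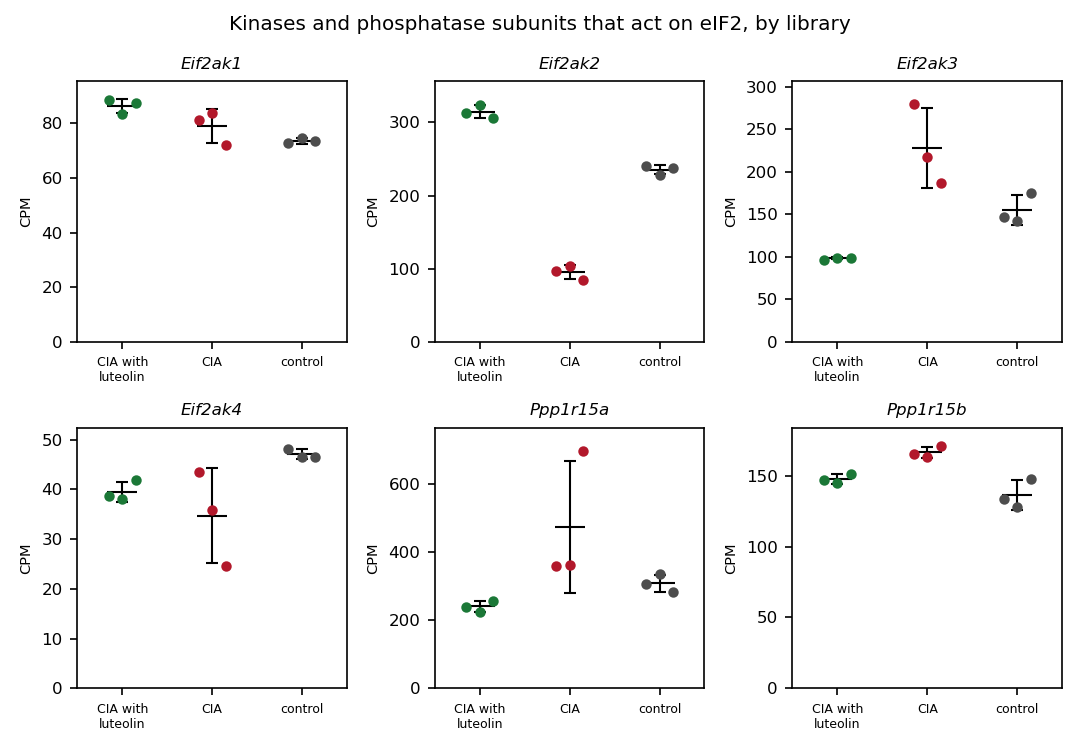
CPM in each library (points) with the mean and SD of 3 libraries (lines) for the 4 eIF2 kinase genes and 2 phosphatase subunit genes, in CIA with luteolin, CIA and control. Eif2ak2 is lowest in CIA and Eif2ak3 highest, with no overlap between groups in either gene.

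Other genes of the pathway were counted by list, beside the 47.3% of all tested genes that passed in CIA with luteolin against CIA and the 51.1% in CIA against control. Of 15 genes of ATF4 and its targets, which phosphorylated eIF2 induces, 4 rose and 3 fell in CIA with luteolin against CIA, near the share over all genes, and 2 rose and 1 fell in CIA against control, below it. With luteolin against CIA the mTORC1 inhibitor gene Ddit4 fell (-0.81 ± 0.09, adjusted p = 4.69e-05), the pseudokinase gene Trib3 fell (-0.61 ± 0.19, adjusted p = 0.0219, at -0.39 without CIA replicate 3 and not called without CIA with luteolin replicate 2 or 3 or CIA replicate 2) and the stress-induced Nupr1 rose (1.0, adjusted p = 0.00185). Of 14 genes of mTORC1 and the kinases and inhibitors around eIF4E, 2 rose and 3 fell in CIA with luteolin against CIA, below the share over all genes, and 3 rose and 6 fell in CIA against control. Larp1, which encodes a binding protein of mRNAs with the oligopyrimidine motif, rose in CIA with luteolin against CIA (0.76 ± 0.08, adjusted p = 3.34e-05) and fell in CIA against control (-0.58 ± 0.08, adjusted p = 0.000244). The mTOR inhibitor gene Deptor rose in CIA against control (1.26 ± 0.17, adjusted p = 0.000226), and Pdcd4, an inhibitor of eIF4A, fell (-0.33 ± 0.08, adjusted p = 0.00636).

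Of 10 elongation and termination factor genes, 2 rose in CIA with luteolin against CIA and 8 missed the threshold, while 8 fell in CIA against control and 2 missed it, where 23.1% of all tested genes rose in the first and 24.5% fell in the second. Eef1b2, a nucleotide exchange subunit of eEF1, fell in CIA against control (-0.66 ± 0.09, adjusted p = 0.000209), as did Eef1d (-0.46 ± 0.08, adjusted p = 0.000807). Eef2k, the kinase that inactivates eEF2, rose in CIA with luteolin against CIA (1.65 ± 0.18, adjusted p = 4.92e-05) and fell in CIA against control (-0.72 ± 0.18, adjusted p = 0.00774). Of 6 genes of poly(A) binding proteins and their partners, 0 rose and 3 fell in CIA with luteolin against CIA. Of all tested genes 23.1% rose and 24.2% fell there. In CIA against control 1 of the 6 rose and 3 fell, where 26.6% of all tested genes rose and 24.5% fell. Pabpn1, the nuclear poly(A) binding protein, fell in CIA with luteolin against CIA (-0.65 ± 0.13, adjusted p = 0.00197) and in CIA against control (-0.71 ± 0.13, adjusted p = 0.0011). Paip2b, an inhibitor of the cytoplasmic protein, fell in CIA with luteolin against CIA (-0.73 ± 0.09, adjusted p = 0.000115), and Pabpc4 fell in CIA against control (-0.93 ± 0.13, adjusted p = 0.000284).

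Of 9 accessory genes, among them the helicases and the hypusine enzymes, 1 rose and 1 fell in CIA with luteolin against CIA and 1 rose and 1 fell in CIA against control, below the share over all genes in both. Ddx3x, a helicase that helps structured mRNAs, fell in CIA with luteolin against CIA (-0.59 ± 0.11, adjusted p = 0.00164) and rose in CIA against control (0.69 ± 0.11, adjusted p = 0.000685). Dohh, which completes the hypusine on eIF5A, rose in CIA with luteolin against CIA (0.37 ± 0.11, adjusted p = 0.0209), a call lost without CIA with luteolin replicate 3 or CIA replicate 2. Dhx36, a helicase of G-quadruplexes, fell in CIA against control (-0.32 ± 0.10, adjusted p = 0.0194), a call lost without control replicate 1 or 2.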

How the data were processed

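The deposited values are unnormalised read counts for each gene, which the authors obtained with featureCounts (Subread 1.5.1) after Trimmomatic 0.36, per the submitters' processing notes. Those notes give the build mm39, whereas the labels' protocols name the hamster genome CHOK1GS and a mapper written as STRA. The deposited table lists mouse genes, and its coordinates are given as mm39. The kit marks strand, but the strand setting of the counting is not given in the sources used here, so reads of overlapping genes cannot be told apart. Of the 50 tested members, 19 overlap exons of other genes, 4 of these over more than 25% of their length. Near-identical copies may share reads.

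Counts of all 9 libraries were fitted without rescaling in R 4.3.3 by edgeR 4.0.16 (filterByExpr, TMM with factors 0.95 to 1.02, a term per group, glmQLFTest, 2-sided). P-values were adjusted by Benjamini-Hochberg over 19348 genes with a threshold of 0.05. Errors of log2 fold changes are SE, those of levels SD over 3 libraries. Ratios of 2 or 3 members were tested by exact permutation over libraries. The procedure was tested on simulated data. A value that did not pass is not shown to be unchanged, since small changes can be missed with 3 libraries per group. Alternatives for members were size factors of DESeq2 (RLE), upper quartile factors, total counts, no filter, a filter at 2 CPM, a fit of only the 6 libraries compared, a replicate block, DESeq2 1.42.0 and leaving out each library, 17 per member (16 for Eif4ebp3, which the 2 CPM filter removed). Ratios were recomputed just without each of the 6 libraries compared. Exonic length came from the table. The rule was read literally, so 9 numbered pseudogenes stayed among the members, and 1 of them, Eif4a-ps4, was tested.

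Members, role lists, pathway lists and cell marker lists were chosen with earlier results of these data known. Values by library are given for members that passed and averaged 2 CPM or more, up to the 5 largest rises and 5 largest falls in each comparison, and for 16 members whatever their values. For each pathway list up to 3 genes with the smallest p in any comparison are named, and all of the eIF2 kinase list.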

Additional observations from a re-analysis of the deposited data

How the results depend on the processing

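No call of a member turned direction under any alternative. Of 1051 values of named members under an alternative, 951 kept direction and call, 64 lost the call, 13 gained one and 23 changed sign, none of the last called. The labels state no pairing by replicate number. Same-numbered libraries of different groups had correlations of -0.0506 to 0.263, most of them positive. Differently numbered ones had -0.331 to 0.225, most of them negative. Each group's mean was subtracted before correlating, so positive values in same-numbered pairs push the others below 0. The negative signs are therefore not a separate result. Whether same-numbered libraries share a batch was not tested. With a replicate block 4 members rose and 17 fell in CIA against control. The numbers were 16 and 6 in CIA with luteolin against CIA, and 7 and 7 in CIA with luteolin against control. Falls in CIA against control numbered 12 with no filter and 12 when the fit held just the 6 libraries in question. In CIA with luteolin against control, upper quartile factors gave 3 rises and 12 falls, and a fit of just those 6 libraries gave 15 falls. The causes were not tested.

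Leaving out each library gave 4 to 5 rises and 11 to 21 falls in CIA against control, 11 to 18 and 4 to 8 in CIA with luteolin against CIA, and 3 to 8 and 2 to 12 in CIA with luteolin against control. The count of 10 eIF3 subunits that fell in CIA ranged from 6 to 10; it was added as a result after seeing the data. Changes of sign were near 0. In CIA against control Eif2s1 was at -0.020 with total counts, -0.00092 with no filter and -0.030 to 0.033 with a library left out, Eif5a at -0.028, -0.0090 and -0.061 to 0.056, and Eif4a1 at -0.21 to 0.018 with a library left out. In CIA with luteolin against CIA Eif4g1 was at -0.094 to 0.020, Eif4ebp2 at -0.12 to 0.041, and Eif3a at -0.054 with upper quartile factors, -0.017 with the 2 CPM filter and -0.026 to 0.081 with a library left out. In CIA with luteolin against control Eif4g1 was at -0.042 with upper quartile factors and -0.0078 to 0.089 with a library left out, and Eif3a at -0.11 to 0.013. Members with low counts, such as Eif4ebp3 with 32 to 72 counts in a library, are less precise by counting error.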

Other observations

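Eif4a-ps4, a pseudogene named for Eif4a, had 4.32, 3.77 and 4.22 CPM in CIA with luteolin, 2.45, 1.52 and 3.84 CPM in CIA and 2.93, 3.53 and 3.04 CPM in control. The luteolin libraries overlapped CIA in CIA replicate 3, and it did not pass in CIA with luteolin against CIA (0.66 ± 0.27, adjusted p = 0.0651). That value was called in 4 of 17 alternatives, among them without CIA replicate 3 (1.04), and was 0.39 without CIA replicate 2. In CIA against control it did not pass (-0.29 ± 0.27, adjusted p = 0.395), but was -0.67 and called without CIA replicate 3. Whether it shares reads with other Eif4a genes was not tested.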
